A study of Rattus norvegicus with 12 samples.

Results

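The Fos, Jun and Egr immediate early genes were followed across 12 poly-A RNA sequencing libraries of rat cells. The 10 members (Fos, Fosb, Fosl1, Fosl2, Jun, Junb, Jund, Egr1, Egr2 and Egr3) were taken by gene name from a table of 18344 rows, and each name had a single row. Levels are in FPKM, which divide the fragments of a gene by its length and by the library's total, so levels of different genes can be set side by side. The cells of all 12 libraries had gone through OGD/R (oxygen-glucose deprivation followed by reperfusion), a culture model of ischaemia, and untreated cells were not analysed here. The groups were CIRBP, NC, si-CIRBP and si-NC, each after OGD/R and each with 3 libraries that the titles call biological replicates; nothing says whether they came from separate cultures, so p-values measure the spread between these libraries only. CIRBP against NC and si-CIRBP against si-NC are called the CIRBP arm and the si arm below. The labels disagree on the cells: titles and source give H9C2, a line from embryonic rat heart, and the cell line entry reads rat astrocytes. The sources used here do not give how CIRBP was delivered or whether both arms used the same cells.

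Immediate early genes are transcribed within minutes of a growth factor, a stress or a calcium signal, without new protein synthesis, when kinases act on transcription factors already bound to their promoters, among them SRF with its ternary complex partners and CREB. Proteins of the Fos family (Fos, Fosb, Fosl1, Fosl2) pair with those of the Jun family (Jun, Junb, Jund) through leucine zippers into AP-1, which binds the motif TGANTCA, while the Egr proteins are zinc finger factors that bind GCGNGGGCG. In heart, ischaemia and reperfusion are known to induce Fos, Jun and Egr1.

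Cirbp, the cold-inducible RNA-binding protein at which the treatments were aimed, was measured at 34.3, 36.5 and 36.5 FPKM in the CIRBP libraries, against 19.0, 19.8 and 20.1 FPKM in NC. It had 26.5, 28.6 and 27.7 FPKM in libraries labelled si-CIRBP, against 29.0, 24.2 and 27.0 FPKM in si-NC. Cirbp was therefore higher in CIRBP than in NC (log2 difference 0.83, adjusted p = 2.474e-06, limma) and was not lower in the libraries labelled si-CIRBP than in si-NC (log2 difference 0.05, adjusted p = 0.6089, limma), so every direction given for the si arm is that of the labels and not of a measured loss of Cirbp. Summed FPKM ran from 457774.6 to 502888.7 per library, and relative depth, read from the steps of values under 0.3 FPKM, was 0.843 to 1.03 times that of NC library 1. The absolute depth is unknown.

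The arms differed in more than Cirbp, and single libraries stood apart. The summed level of 4 smooth muscle markers was 2.98 to 3.59 FPKM in CIRBP and 5.45 to 7.61 FPKM in NC, but 687 to 877 FPKM in libraries labelled si-CIRBP and 109, 1362 and 1041 FPKM in si-NC. The 11 cardiac and skeletal muscle markers in the table summed to 46.5 to 48.2 FPKM in CIRBP, 34.2 to 35.9 FPKM in NC. Their sum was 60.4 to 234 FPKM for the libraries labelled si-CIRBP and 41.8 to 175 FPKM in si-NC. Nkx2-5, which marks cardiac muscle, was listed at 0 in every CIRBP and NC library. The 6 astrocyte markers in the table summed to 267 to 283 FPKM in CIRBP and 180 to 194 FPKM in NC, without overlap. That sum was 182 to 196 FPKM in the libraries labelled si-CIRBP and 132 to 184 FPKM in si-NC. S100b held the largest part of it in every library, and Gfap, the defining marker, was at 1.44 to 6.89 FPKM over all 12 libraries. The part of these markers in the results below was not tested. The median SD of a gene within its group was 0.057 in CIRBP, 0.0539 in NC, 0.147 in the libraries labelled si-CIRBP and 0.133 in si-NC on the log2(FPKM + 1) scale. Library 1 of the si-CIRBP label deviated for several members, as described below, and values without it are given beside the results that it moves.

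The Jun genes had the highest mean levels in NC and Egr3 the lowest. Mean levels in NC were 253 FPKM for Jun, 143 FPKM for Junb, 102 FPKM for Jund, 47.0 FPKM for Fosl1, 39.4 FPKM for Fosl2, 9.25 FPKM for Fos, 5.30 FPKM for Egr1, 5.21 FPKM for Egr2, 2.00 FPKM for Fosb and 0.632 FPKM for Egr3. In this order Egr1 and Egr2 had overlapping values, and each of the other neighbours was apart in the 3 NC libraries. Egr3 missed the filter of at least 1 FPKM in 3 libraries and was not among the 9 members tested with the 14257 genes that passed it.

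**Figure D1:**
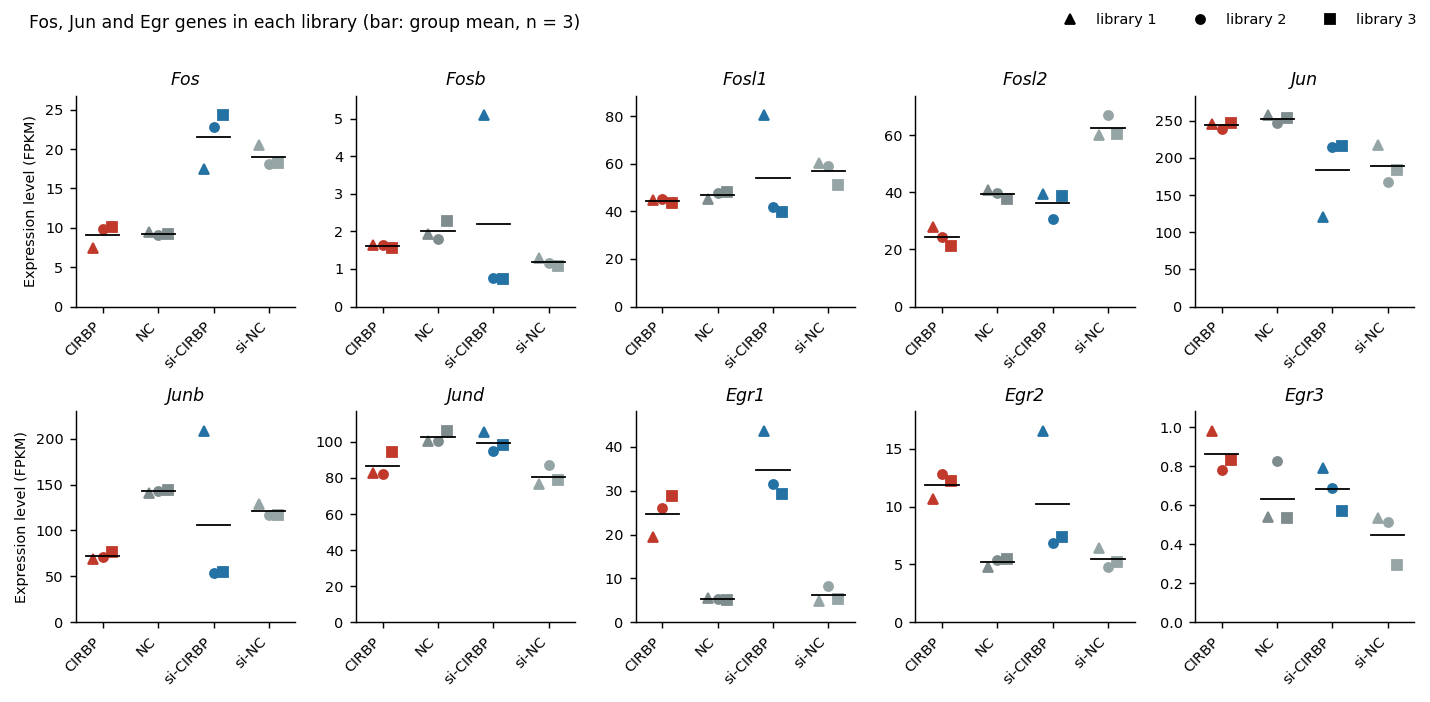
Level in FPKM (vertical axes, each from 0) of the 10 genes in the CIRBP, NC, si-CIRBP and si-NC groups; each symbol is a library and the bar is the mean of 3. Egr1 lies between 19.5 and 28.7 FPKM in CIRBP against 5.01 to 5.54 FPKM in NC, and library 1 of the si-CIRBP label lies apart for Fosb, Fosl1, Jun, Junb and Egr2.

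Egr1 showed the largest difference of the 9 tested members in both arms, and Egr2 went with it in the CIRBP arm. Fosl2 was lower in both arms. The sequences before the starts of these 3 genes are shown. They run 5′ to 3′ on the strand of the gene, cover the 250 bases before the start, and come from RefSeq on the rat build GRCr8, in which 7 of the 10 members had an entry (Fosb, Fosl1, Fosl2, Junb, Jund, Egr1 and Egr2). Capitals mark CArG boxes (the SRF motif), TGACG read on either strand (the core of the CREB motif), and GCGNGGGCG (the Egr motif).
Egr1, chr18:26736828-26737077, plus strand: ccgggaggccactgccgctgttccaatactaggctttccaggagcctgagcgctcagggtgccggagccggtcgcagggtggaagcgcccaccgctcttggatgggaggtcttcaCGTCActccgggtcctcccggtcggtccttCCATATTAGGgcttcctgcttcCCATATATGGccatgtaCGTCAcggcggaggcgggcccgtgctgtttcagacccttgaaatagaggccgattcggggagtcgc
Egr2, chr20:21054442-21054691, minus strand: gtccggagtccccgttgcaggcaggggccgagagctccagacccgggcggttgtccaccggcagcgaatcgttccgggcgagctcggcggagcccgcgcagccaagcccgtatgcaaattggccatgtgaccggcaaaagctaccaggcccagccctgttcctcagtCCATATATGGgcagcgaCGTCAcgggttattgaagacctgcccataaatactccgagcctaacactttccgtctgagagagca
Fosl2, chr6:30039270-30039519, minus strand: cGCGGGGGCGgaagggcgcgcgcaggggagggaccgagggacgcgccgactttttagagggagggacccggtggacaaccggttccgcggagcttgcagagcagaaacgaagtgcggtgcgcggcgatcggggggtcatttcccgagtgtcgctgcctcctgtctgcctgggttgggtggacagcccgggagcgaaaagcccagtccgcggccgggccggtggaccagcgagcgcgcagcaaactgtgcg
The Egr1 sequence held 2 CArG boxes, CCATATTAGG and CCATATATGG, whose first bases lie 105 and 83 bases before the start. It also held TGACG at 135 and 66 bases, both on the other strand as CGTCA. Egr2 held a single CArG box, CCATATATGG, at 83 bases, and CGTCA at 66 bases, which are the same letters at the same distances as the nearer pair of Egr1. Fosl2 held no CArG box and no TGACG, and a single GCGGGGGCG at 249 bases.

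Among 33469 rat promoters of the same length, searched on both strands, 1.5% held a CArG box, 18.2% held TGACG, 1.59% held TGACGTCA, 6.34% held TGANTCA and 4.29% held GCGNGGGCG. TGACG also lies within TGACGTCA, so these counts overlap. Of the other members with an entry, Jund held a TGACGTCA at 221 bases and 3 Egr motifs at 139, 76 and 31 bases before its start. Fosl1 held CGTCA at 148 and 84 bases and Junb held TGACG at 155 bases, while Fosb held none of these motifs. No CArG box was found in the sequences of Fosb, Fosl1, Junb or Jund. The AP-1 motif TGANTCA was found in none of the 7 sequences. A match describes the letters in this window and no factor was measured there. The part of these motifs in the differences between groups was not tested.

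Egr1, a zinc finger activator induced by serum, stretch and ischaemia, was measured at 19.5, 26.1 and 28.7 FPKM in CIRBP libraries 1 to 3, against 5.54, 5.35 and 5.01 FPKM in NC. Egr1 had 43.7, 31.5 and 29.1 FPKM in libraries labelled si-CIRBP, against 4.75, 8.36 and 5.29 FPKM in si-NC. Neither arm showed overlap between its groups, and the NC and si-NC values overlapped each other. Mean Egr1 was 4.67 times that of NC in CIRBP (24.8 ± 4.75 against 5.30 ± 0.269 FPKM, SD, n = 3) and 5.67 times that of si-NC in the libraries labelled si-CIRBP (34.8 ± 7.82 against 6.13 ± 1.95 FPKM, SD, n = 3). Differences were tested with limma on log2(FPKM + 1), with p-values adjusted (Benjamini-Hochberg) across the 14257 genes, and called at an adjusted p under 0.05. Egr1 rose by 2.02 (SE 0.203, adjusted p = 1.416e-05) in the CIRBP arm and by 2.34 (SE 0.203, adjusted p = 3.122e-05) in the si arm. The difference between the arms was -0.32 (SE 0.288, adjusted p = 0.4902), so a difference in size was not shown. Egr1 therefore rose in the libraries labelled si-CIRBP, where Cirbp was not lower, as well as in CIRBP, where Cirbp was higher. As these are bulk libraries, a change in the number of expressing cells and a change in RNA per cell cannot be told apart here or below. The summed levels of 6 of the 7 cell type marker lists, among them those of muscle and astrocytes, did not overlap between CIRBP and NC. Of all tested genes 74.7% did not overlap there. For the si arm 1 of the 7 sums did not overlap, where 36.1% of all tested genes did not. The part of these marker levels in the rise was not tested.

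Egr2, a factor of the same family known for its part in hindbrain and Schwann cell development, had 10.7, 12.8 and 12.2 FPKM in CIRBP, against 4.79, 5.37 and 5.48 FPKM in NC. It had 16.6, 6.89 and 7.34 FPKM in libraries labelled si-CIRBP, against 6.40, 4.77 and 5.20 FPKM in si-NC. The groups did not overlap in either arm, but library 1 of the si-CIRBP label was higher than every other library. Mean Egr2 was 2.28 times that of NC in CIRBP, and limma gave a log2 difference of 1.05 (SE 0.250, adjusted p = 0.004423), which was called. The ratio of means in the si arm was 1.88 and the log2 difference 0.71 (SE 0.250, adjusted p = 0.05472, limma), which was not called. Without library 1 of the si-CIRBP label it was 0.34 and was called (adjusted p = 0.03957, limma). It was also called without library 2 (0.92, adjusted p = 0.02478, limma) or library 3 (0.88, adjusted p = 0.03856, limma) of that label, and over all alternatives its adjusted p ran from 0.005035 to 0.2104. The difference between the arms was 0.34 (adjusted p = 0.5571, limma), and 0.71 without library 1 (adjusted p = 0.006131, limma).

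Egr3, which in the rat is induced in neurons by activity, stayed under 1 FPKM in every library. It had 0.982, 0.779 and 0.831 FPKM in CIRBP, against 0.539, 0.824 and 0.533 FPKM in NC, and these groups overlapped. It had 0.789, 0.687 and 0.571 FPKM in libraries labelled si-CIRBP, against 0.533, 0.514 and 0.294 FPKM in si-NC, without overlap. When limma was run over all 18344 rows with no filter, Egr3 differed by 0.20 in the CIRBP arm (adjusted p = 0.1366) and by 0.22 in the si arm (adjusted p = 0.1462), and neither was called.

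The Egr genes together summed to 37.5 ± 5.62 FPKM in CIRBP and 11.1 ± 0.351 FPKM in NC; for the libraries labelled si-CIRBP it was 45.7 ± 13.3 FPKM and for si-NC 12.0 ± 1.46 FPKM (SD, n = 3 each). Egr1 made up 65.7% ± 3.07 of that sum in CIRBP and 47.6% ± 2.97 in NC. Its share was 76.9% ± 4.76 in the libraries labelled si-CIRBP and 50.3% ± 10.4 in si-NC. Egr2 made up most of the remainder, with 31.9% in CIRBP and 46.7% in NC, and 21.5% in the libraries labelled si-CIRBP and 46.0% in si-NC. The Egr1 shares of CIRBP (62.6% to 68.8%) and NC (45.5% to 51.0%) did not overlap, nor did those of the libraries labelled si-CIRBP (71.6% to 80.6%) and si-NC (40.7% to 61.3%). Without library 1 of the si-CIRBP label the family sum of that group averaged 38.1 FPKM and the Egr1 share 79.6%.

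Fosl2, also called Fra-2, is a Fos family protein that lacks the strong activation domain of Fos. It had 27.8, 24.4 and 21.1 FPKM in CIRBP, against 40.8, 39.6 and 37.7 FPKM in NC. Fosl2 had 39.4, 30.7 and 38.8 FPKM in libraries labelled si-CIRBP, against 60.0, 67.2 and 60.3 FPKM in si-NC. In both arms every library lay below every library of its control. Mean Fosl2 was 0.621 times that of NC in CIRBP and 0.580 times that of si-NC in the libraries labelled si-CIRBP. Fosl2 fell by 0.67 (SE 0.110, adjusted p = 0.0004109) in the CIRBP arm and by 0.78 (SE 0.110, adjusted p = 0.0006094) in the si arm on the log2 scale of limma, and the arms differed by 0.10 (SE 0.156, adjusted p = 0.7028), which was not called. Its highest group was si-NC, its lowest was CIRBP, and the libraries labelled si-CIRBP overlapped NC.

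Fosl1, or Fra-1, a growth-induced relative of Fosl2, made up the largest share of the Fos family in CIRBP and NC. It had 44.9, 45.1 and 43.4 FPKM in CIRBP, against 45.2, 47.6 and 48.0 FPKM in NC, a log2 difference of -0.08 (SE 0.207, adjusted p = 0.7957, limma). These values did not overlap although the difference was not called, and it was positive after the libraries were scaled to a common median (0.07). Fosl1 had 80.6, 42.0 and 39.9 FPKM in libraries labelled si-CIRBP, against 60.4, 58.9 and 51.1 FPKM in si-NC. Library 1 was above all si-NC libraries and libraries 2 and 3 were below all of them. The log2 difference was -0.14 (adjusted p = 0.658, limma) with all libraries and -0.46 without library 1, which was called (adjusted p = 0.0006947, limma). The difference between the arms was 0.06 (adjusted p = 0.9103, limma) with all libraries and 0.38 without that library, which was called (adjusted p = 0.01083, limma).

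Fos, the usual marker of recent stimulation, overlapped between the groups of each arm and lay higher in the si arm than in the CIRBP arm. It had 7.38, 9.86 and 10.1 FPKM in CIRBP, against 9.48, 9.03 and 9.22 FPKM in NC. It had 17.4, 22.8 and 24.4 FPKM in libraries labelled si-CIRBP, against 20.5, 18.1 and 18.2 FPKM in si-NC. All si arm libraries lay above all CIRBP and NC libraries. The log2 difference was -0.03 (SE 0.130, adjusted p = 0.8894, limma) in the CIRBP arm and 0.16 (SE 0.130, adjusted p = 0.3813, limma) in the si arm, and neither was called.

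Fosb, an AP-1 subunit known from neurons and bone, was the lowest of its family. It had 1.64, 1.64 and 1.55 FPKM in CIRBP, against 1.93, 1.80 and 2.27 FPKM in NC, and a log2 difference of -0.20 (SE 0.381, adjusted p = 0.7018, limma). It had 5.10, 0.769 and 0.735 FPKM in libraries labelled si-CIRBP, against 1.29, 1.17 and 1.07 FPKM in si-NC. A single library thus held the mean of its group above that of si-NC. The log2 difference was 0.29 (adjusted p = 0.6107, limma) with it and -0.31 (adjusted p = 0.03555, limma) without it, a turn of direction.

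The summed Fos family level was 79.6 ± 3.03 FPKM in CIRBP and 97.6 ± 0.410 FPKM in NC; for the libraries labelled si-CIRBP it was 114 ± 24.9 FPKM and for si-NC 139 ± 7.71 FPKM (SD, n = 3 each). Fosl1 and Fosl2 together carried most of it in every library. Fosl1 made up 55.9% ± 1.02 in CIRBP and 48.1% ± 1.52 in NC, and Fosl2 made up 30.6% ± 3.18 in CIRBP and 40.3% ± 1.53 in NC. Fosl1 made up 46.2% ± 9.33 in the libraries labelled si-CIRBP and 40.7% ± 1.68 in si-NC, and Fosl2 made up 32.3% ± 4.89 in the libraries labelled si-CIRBP and 44.9% ± 2.3 in si-NC. The share of Fosl2 was thus lower than in the control in both arms, without overlap. Fos made up 11.5% ± 2.2 in CIRBP and 9.48% ± 0.257 in NC, and 19.8% ± 6.54 in the libraries labelled si-CIRBP and 13.6% ± 1.03 in si-NC, with overlapping values in each arm. In the si arm the overlap came from library 1 of the si-CIRBP label, where Fos made up 12.2%, against 23.6% and 23.5% in libraries 2 and 3 and 12.4% to 14.4% in si-NC. Without that library the family sum of the si-CIRBP label averaged 99.97 FPKM, with 41.1% Fosl1 and 34.6% Fosl2.

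**Figure D2:**
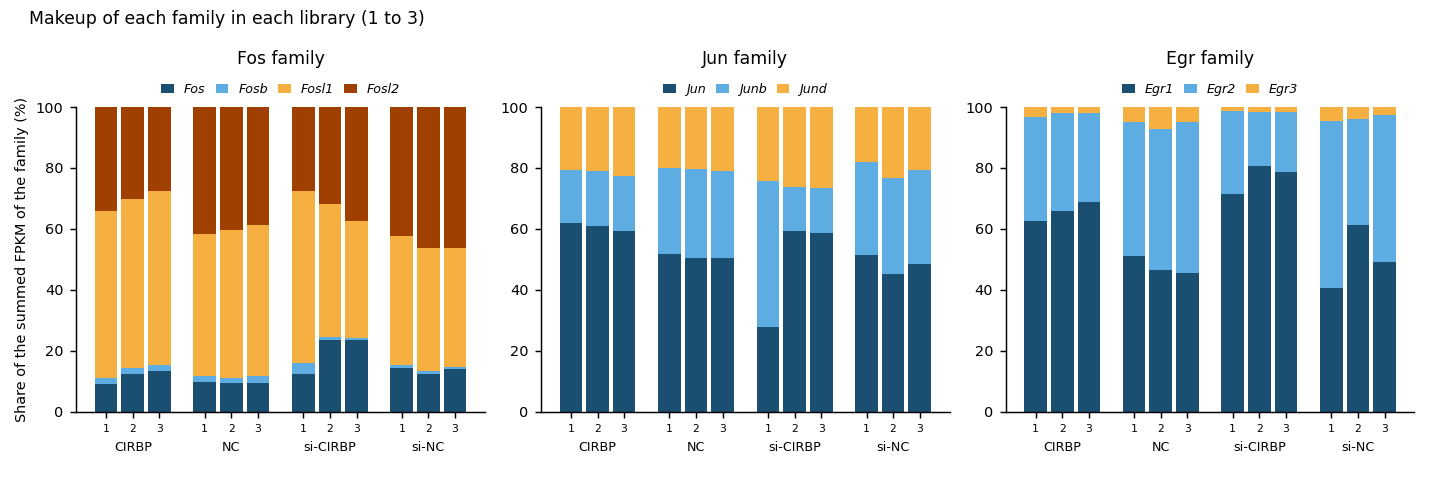
Share (%) of the summed FPKM of the Fos, Jun and Egr families held by each member, in every library (1 to 3) of the CIRBP, NC, si-CIRBP and si-NC groups. Egr1 makes up 65.7% of its family in CIRBP against 47.6% in NC, and library 1 of the si-CIRBP label has 27.8% Jun and 48.0% Junb.

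Junb, a Jun family protein that activates less strongly than Jun and can restrain it, had 68.8, 71.3 and 76.1 FPKM in CIRBP, against 140.4, 143 and 144.5 FPKM in NC. The CIRBP mean was 0.505 times that of NC, every CIRBP library lay far below every NC library, and the SDs were 3.69 and 2.05 FPKM (n = 3 each). The log2 difference was -0.98 (SE 0.40) and was not called in the fit that shares its spread over all 12 libraries (adjusted p = 0.0608, limma). In the si arm Junb had 209, 53.5 and 54.4 FPKM in libraries labelled si-CIRBP, against 129, 117 and 117 FPKM in si-NC. Library 1 was the highest and libraries 2 and 3 the lowest of all 12, and the log2 difference was -0.50 (adjusted p = 0.3821, limma). Without that library Junb fell by 0.98 in the CIRBP arm (adjusted p = 2.098e-07, limma) and by 1.15 in the si arm (adjusted p = 1.022e-06, limma), and in limma fitted to only CIRBP and NC its adjusted p was 3.862e-06. Its CIRBP arm difference was also called without library 2 or library 3 of the si-CIRBP label (adjusted p = 0.04424 and 0.0464, limma). These libraries enter the CIRBP arm through the shared spread alone.

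Jund, the member of the family that is expressed in resting cells, was the only one called in opposite directions. It had 82.7, 82.3 and 94.3 FPKM in CIRBP, against 100.7, 100.4 and 106 FPKM in NC, and fell by 0.25 (SE 0.0695, adjusted p = 0.01168, limma). It had 105.5, 94.9 and 98.1 FPKM in libraries labelled si-CIRBP, against 76.5, 86.9 and 78.7 FPKM in si-NC, and rose by 0.30 (SE 0.0695, adjusted p = 0.00888, limma). Neither pair overlapped, and the ratios of means were 0.843 and 1.23. The difference between the arms was -0.545 (SE 0.0983, adjusted p = 0.004751, limma) and was called. The fall in the CIRBP arm was -0.10 and not called after the libraries were scaled to a common median (adjusted p = 0.3259, limma), a scaling which moved the median difference of all genes in that arm from -0.08 to 0.03. It was also not called without CIRBP library 2 (-0.21, adjusted p = 0.05068, limma). The rise in the si arm was not called with only its own groups in the fit (adjusted p = 0.0699, limma).

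Jun, the partner through which Fos proteins bind DNA as AP-1, was the most abundant member in all libraries except library 1 of the si-CIRBP label, where Junb exceeded it. It had 245, 239 and 248 FPKM in CIRBP, against 258, 247 and 253 FPKM in NC, a log2 difference of -0.05 (SE 0.187, adjusted p = 0.8485, limma). It had 121, 215 and 216 FPKM in libraries labelled si-CIRBP, against 217, 167 and 184 FPKM in si-NC, a log2 difference of -0.08 (SE 0.187, adjusted p = 0.7772, limma). The groups overlapped in each arm and neither difference was called. Without library 1 of the si-CIRBP label the si arm difference was 0.19 (adjusted p = 0.1154, limma).

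The Jun family summed to 402 ± 13.8 FPKM in CIRBP and 498 ± 6.75 FPKM in NC; for the libraries labelled si-CIRBP it was 389 ± 40.0 FPKM and for si-NC 391 ± 27.8 FPKM (SD, n = 3 each). Jun made up 60.6% ± 1.29 in CIRBP and 50.8% ± 0.789 in NC. Junb made up 17.9% ± 0.483 in CIRBP and 28.6% ± 0.508 in NC, and neither share overlapped between these groups. Jund made up 21.5% ± 0.951 in CIRBP and 20.6% ± 0.462 in NC. In the libraries labelled si-CIRBP the Jun share ran from 27.8% in library 1 to 59.1%, against 48.3% ± 3.17 in si-NC, and the Junb share from 14.7% to 48.0% in library 1, against 30.9% ± 0.498 in si-NC. Without library 1 the family sum of that label averaged 366 FPKM, with 58.9% Jun and 14.7% Junb.

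In the CIRBP arm 4 of the 9 tested members were called, 2 higher (Egr1 and Egr2) and 2 lower (Fosl2 and Jund), where 54.0% of all tested genes were called, 19.7% higher and 34.2% lower. In the si arm 3 members were called, 2 higher (Egr1 and Jund) and 1 lower (Fosl2), where 29.6% of all tested genes were called, 9.08% higher and 20.5% lower. These member shares are near the background of their comparison, so the counts alone set the members apart from no other genes. Scaling to a common median changed the split of all called genes in the CIRBP arm from 2814 higher and 4881 lower to 4088 higher and 3757 lower, and that of the members from 2 and 2 to 2 and 1. The same scaling changed the si arm split of all called genes from 1294 higher and 2924 lower to 2420 higher and 1903 lower. Values of 7 of the 10 members did not overlap between CIRBP and NC, where 74.7% of all tested genes did not. For the si arm, 5 of the 10 members did not overlap, where 36.1% of tested genes did not. The 10 include Egr3, which is not among the tested genes. Egr3 overlapped between CIRBP and NC and is 1 of the 5 that did not overlap in the si arm.

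The count in the si arm depended on library 1 of its label. Without that library 7 of the 9 tested members were called, 3 higher and 4 lower, where 35.7% of all tested genes were called, 12.1% higher and 23.6% lower. Without it and library 1 of si-NC, an omission chosen after the data had been seen, 9 were called, 5 higher and 4 lower, where 41.8% of all tested genes were called, 16.3% higher and 25.5% lower. With only the si-CIRBP and si-NC groups in the fit 2 were called, Egr1 and Fosl2, and the genes called over the whole table were 1155 (8.10%) instead of 4218. For the difference between the arms, where 17.8% of all tested genes were called, 6.87% higher and 10.9% lower, Jund alone was called among the members, and without library 1 of the si-CIRBP label 3 were called, where 31.6% of all tested genes were.

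**Figure D3:**
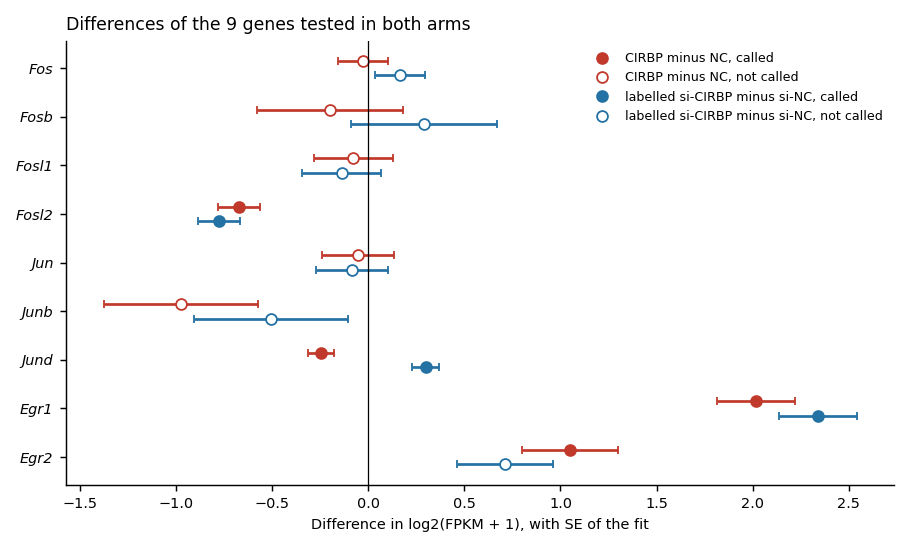
Difference in log2(FPKM + 1) with its SE (horizontal axis) for the 9 tested genes, CIRBP minus NC and labelled si-CIRBP minus si-NC; filled symbols were called at an adjusted p under 0.05 (limma, 3 libraries a group). Egr1 is at 2.02 and 2.34, Fosl2 at -0.67 and -0.78, and Jund lies on opposite sides of 0.

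Library 1 of the si-CIRBP label was set against the mean of libraries 2 and 3 on the log2(FPKM + 1) scale. Junb was 1.93 higher in it, Fosb 1.80, Egr2 1.12, Fosl1 0.96 and Egr1 0.51, while Jun was 0.83 lower and Fos 0.41 lower. Fosl2 and Jund were within 0.19 of the others. The median size of this offset over all tested genes was 0.217, and 3.42% of genes were past 1 in either direction. The median was lower in each of the other 11 libraries set against the rest of its group (0.0485 to 0.172), but the share past 1 was higher in si-NC library 1 (5.19%) and si-NC library 2 (3.93%). Of the other immediate early genes listed, 7 of 19 tested were at least 1 higher in this library, as were 6 of 13 listed AP-1 targets, 3 of 9 listed EGR targets, 2 of 9 AP-1 partners, 2 of 13 MAP kinase phosphatases and feedback inhibitors and 0 of 21 upstream factors and kinases. Its Acta2, a smooth muscle actin, was at 466 FPKM, against 546 and 659 FPKM in libraries 2 and 3. Its Myog, a skeletal muscle regulator, was at 1.48 FPKM, against 28.7 and 44.8 FPKM there. What part the marker levels have in these offsets was not tested.

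**Figure D4:**
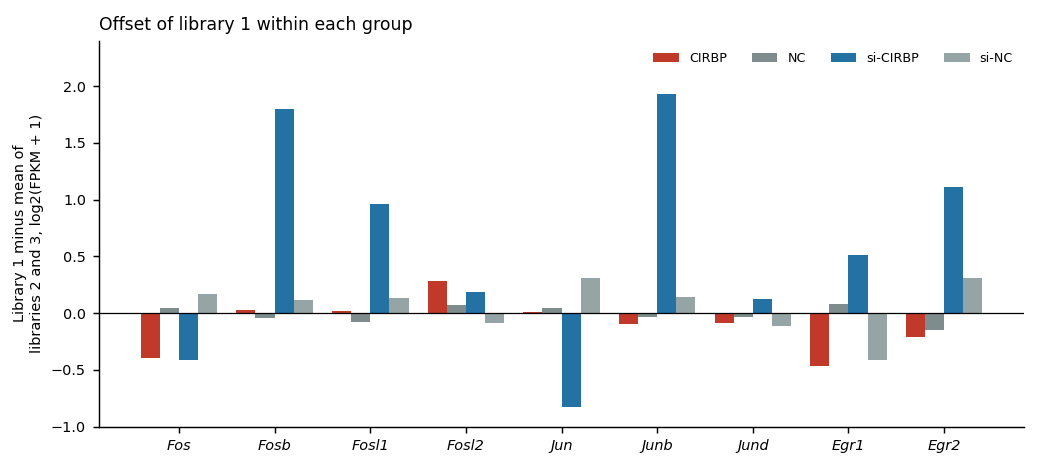
Offset of library 1 from the mean of libraries 2 and 3 of its group in log2(FPKM + 1) (vertical axis) for the 9 tested genes, with a bar for each of the CIRBP, NC, si-CIRBP and si-NC groups. The offsets of the si-CIRBP label reach 1.93 for Junb and -0.83 for Jun.

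The control groups themselves differed for members of the Fos and Jun families. Set against NC, the si-NC libraries held 2.05 times the mean Fos (18.9 ± 1.37 against 9.25 ± 0.222 FPKM, SD, n = 3) and 1.59 times the mean Fosl2 (62.5 ± 4.06 against 39.4 ± 1.53 FPKM, SD, n = 3). Fos was higher by 0.96 (SE 0.130, adjusted p = 0.0006733, limma) and Fosl2 by 0.65 (SE 0.110, adjusted p = 0.002046, limma), and Jund was lower by 0.34 (log2 difference -0.34, SE 0.0695, adjusted p = 0.004956, limma). Those 3 of 9 were called, 2 higher and 1 lower, where 34.4% of all tested genes were, 12.5% higher and 21.9% lower. Egr1 (log2 difference 0.15, adjusted p = 0.6145, limma) and Egr2 (0.05, adjusted p = 0.8967, limma) were not called and their values overlapped. Every si-NC library lay above every NC library for Fos, Fosl1 and Fosl2. For Fosb, Jun, Junb, Jund and Egr3 every si-NC library lay below. Of all tested genes 53.1% did not overlap there. Mean Jun was 189 FPKM in si-NC and 253 FPKM in NC, and mean Junb was 121 and 143 FPKM. Neither Jun (-0.42, adjusted p = 0.105, limma) nor Junb (-0.24, adjusted p = 0.6826, limma) was called. Without library 1 of the si-CIRBP label, which changes the shared estimate of the spread but no level of these groups, 7 members were called, where 47.1% of all tested genes were. These controls are also the controls of both arms, so the differences are not independent of those above, and what separates the groups besides the treatment name cannot be told apart from it.

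Of the factors and kinases that act on these promoters, those called in either arm differed by at most 0.69 on the log2 scale. Of 21 tested SRF, CREB and MAP kinase genes, 5 were higher and 4 lower in the CIRBP arm (median log2 difference 0.04) and 1 was higher and 3 lower in the si arm (median 0.01), against medians of -0.08 and -0.04 over all tested genes. The counts of this list and of those below stand beside the 54.0% of all tested genes called in the CIRBP arm and the 29.6% called in the si arm, and no list was tested against other genes. Creb1, which binds the CREB motif, had 18.1, 18.1 and 17.7 FPKM in CIRBP, against 24.4, 24.4 and 23.1 FPKM in NC, and fell by 0.39 (adjusted p = 0.0003456, limma). It had 15.4, 17.6 and 14.9 FPKM in libraries labelled si-CIRBP, against 21.7, 20.5 and 20.2 FPKM in si-NC, and fell by 0.37 (adjusted p = 0.001759, limma). Every library of each arm was below its controls. In the CIRBP arm Rps6ka5, a kinase that phosphorylates CREB, rose by 0.69 (adjusted p = 0.0001483, limma), Crem, a relative of Creb1, rose by 0.38 (adjusted p = 0.001024, limma) and Map2k4, which activates JNK and p38, fell by 0.47 (adjusted p = 0.0002283, limma). For the si arm, Mapk14, the p38 alpha kinase, rose by 0.26 and the factor Atf2 fell by 0.29 (adjusted p = 0.002317 and 0.002794, limma). Rps6ka5, Crem and Map2k4 were not called in the si arm, nor Mapk14 and Atf2 in the CIRBP arm. With only the groups of the si arm in the fit, 0 of the 21 were called there, where 8.10% of all tested genes were. After scaling to a common median 10 were higher and 3 lower in the CIRBP arm, where 28.7% and 26.4% of all tested genes were. In the si arm 4 were higher and 2 lower after that scaling, where 2420 and 1903 of the 14257 tested genes were.

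Of the 9 tested AP-1 partners outside the Fos and Jun families, 1 was higher and 4 were lower in the CIRBP arm, and 0 were higher and 4 lower in the si arm. Mafk, a small Maf protein without an activation domain, had 8.82, 8.31 and 9.46 FPKM in CIRBP, against 25.4, 23.5 and 25.8 FPKM in NC, and fell by 1.39 (adjusted p = 2.306e-05, limma). It had 21.5, 12.9 and 13.3 FPKM in libraries labelled si-CIRBP, against 24.6, 23.0 and 24.6 FPKM in si-NC, and fell by 0.60 (adjusted p = 0.01263, limma). Its groups did not overlap in either arm. Batf3, a Jun partner known from dendritic cells, fell by 1.90 in the CIRBP arm and by 0.78 in the si arm (adjusted p = 2.431e-05 and 0.01672, limma). Jdp2, a repressor that pairs with Jun, rose by 0.98 in the CIRBP arm (adjusted p = 0.0006709, limma), with 35.9, 39.2 and 38.4 FPKM in CIRBP, against 17.2, 19.4 and 19.4 FPKM in NC. The larger Maf protein Maf fell by 0.87 in the CIRBP arm (adjusted p = 0.0001564, limma). Jdp2 and Maf were not called in the si arm. Atf3, a stress-induced member of this group, fell by 1.49 in the CIRBP arm and by 1.09 in the si arm (adjusted p = 0.0006979 and 0.01065, limma). Atf4, the effector of the integrated stress response, fell by 0.88 in the si arm (adjusted p = 0.001736, limma) and was not called in the CIRBP arm. With only the si arm groups in the fit 1 of the 9 was called there, where 8.10% of all tested genes were. Without library 1 of the si-CIRBP label 5 were called in that arm, where 35.7% of all tested genes were.

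Of 19 other immediate early genes tested, 3 were higher and 9 lower in the CIRBP arm (median log2 difference -0.51), and 2 were higher and 6 lower in the si arm (median -0.20). Klf6, a zinc finger factor, had 12.7, 13.0 and 12.1 FPKM in CIRBP, against 36.0, 36.4 and 33.1 FPKM in NC, and fell by 1.41 (adjusted p = 1.554e-07, limma). It had 15.3, 16.7 and 16.2 FPKM in libraries labelled si-CIRBP, against 30.5, 25.5 and 29.0 FPKM in si-NC, and fell by 0.78 (adjusted p = 4.187e-05, limma). Klf6 was thus lower in every library of both arms, and the arms differed by -0.63 (adjusted p = 0.002567, limma). Myc, a driver of growth genes, fell by 1.33 in the CIRBP arm and by 1.46 in the si arm (adjusted p = 6.477e-07 and 2.01e-06, limma). Ier2, a nuclear protein induced with Fos, went the other way, with 32.3, 32.4 and 34.8 FPKM in CIRBP, against 16.8 to 17.9 FPKM in NC, and rose by 0.91 (adjusted p = 5.375e-05, limma). It rose by 0.48 in the si arm (adjusted p = 0.008808, limma). Sgk1, a serum-induced kinase, fell by 0.73 in the CIRBP arm and by 0.34 in the si arm (adjusted p = 0.0002942 and 0.04133, limma). Klf4, a zinc finger factor, rose by 0.28 in the CIRBP arm and fell by 0.33 in the si arm (adjusted p = 0.01143 and 0.01053, limma), and the arms differed by 0.62 (adjusted p = 0.005147, limma). Without library 1 of the si-CIRBP label 14 of the 19 were called in the si arm, 2 higher and 12 lower. Of all tested genes 35.7% were called there, 12.1% higher and 23.6% lower. With only the groups of the si arm in the fit 2 of the 19 were called, both lower, where 8.10% of all tested genes were.

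MAP kinase phosphatases and feedback inhibitors, which are induced by the same kinases and then restrain them, held some of the largest differences of the lists. Of 13 tested, 6 were higher and 2 lower in the CIRBP arm (median log2 difference 0.46), and 4 were higher and 2 lower in the si arm (median 0.23). Dusp6, the phosphatase of ERK, had 66.1, 58.8 and 65.7 FPKM in CIRBP, against 23.4, 23.4 and 22.6 FPKM in NC, and rose by 1.42 (adjusted p = 3.531e-06, limma). It had 54.8, 52.1 and 51.1 FPKM in libraries labelled si-CIRBP, against 44.3, 29.5 and 39.3 FPKM in si-NC, and rose by 0.49 (adjusted p = 0.01013, limma). The groups were apart in both arms and the rise was 0.93 larger in the CIRBP arm (adjusted p = 0.004507, limma). Spry4, an inhibitor of receptor signalling to ERK, rose by 1.56 in the CIRBP arm and by 0.55 in the si arm (adjusted p = 1.165e-05 and 0.02043, limma), and its relative Spry1 rose by 1.19 in the CIRBP arm and by 0.36 in the si arm (adjusted p = 5.3e-06 and 0.02393, limma). The arms differed by 1.01 for Spry4 and by 0.82 for Spry1 (adjusted p = 0.01012 and 0.004507, limma). Dusp10, the phosphatase of JNK and p38, went the other way. It had 4.06, 4.30 and 4.30 FPKM in CIRBP, against 25.6, 24.3 and 26.2 FPKM in NC, and fell by 2.33 (adjusted p = 9.433e-09, limma). It had 8.56, 8.91 and 10.1 FPKM in libraries labelled si-CIRBP, against 23.6, 21.5 and 21.7 FPKM in si-NC, and fell by 1.19 (adjusted p = 1.845e-06, limma). For Dusp10 the arms differed by -1.14 (adjusted p = 0.0002314, limma). With only the si arm groups in the fit 1 of the 13 was called there, where 8.10% of all tested genes were. After scaling to a common median 5 were higher and 1 lower in that arm, where 2420 and 1903 of the 14257 tested genes were.

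Of 13 listed AP-1 targets tested, 3 were higher and 4 lower in the CIRBP arm, where 54.0% of all tested genes were called (median log2 difference -0.38), and 2 were higher and 4 lower in the si arm (median -0.08), where 29.6% of all tested genes were called. Spp1, which encodes the matrix protein osteopontin, had 3864, 3625 and 3654 FPKM in CIRBP, against 1121, 1055 and 1177 FPKM in NC, and rose by 1.73 (adjusted p = 1.22e-06, limma). It had 3777, 3038 and 2985 FPKM in libraries labelled si-CIRBP, against 1492, 1093 and 1235 FPKM in si-NC, and rose by 1.36 (adjusted p = 3.64e-05, limma). Its groups were apart in both arms. Ccnd1, cyclin D1, rose by 1.08 in the CIRBP arm and by 0.27 in the si arm (adjusted p = 3.239e-07 and 0.00887, limma), and the arms differed by 0.82 (adjusted p = 0.0003662, limma). Cd44, a hyaluronan receptor, fell by 0.51 in the CIRBP arm and by 0.55 in the si arm (adjusted p = 0.008222 and 0.01221, limma). Mmp9, a gelatinase, fell by 1.41 in the CIRBP arm and by 1.24 in the si arm (adjusted p = 0.00704 and 0.02685, limma). It was low, with 0.106 ± 0.0075 FPKM in CIRBP and 1.95 ± 0.127 FPKM in NC (SD, n = 3 each). Its spread was wide in the libraries labelled si-CIRBP, with 3.96 ± 3.63 FPKM against 9.04 ± 1.87 FPKM in si-NC (SD, n = 3 each). The chemokine Ccl2 fell by 1.39 in the si arm (adjusted p = 0.02612, limma) and was not called in the CIRBP arm. It had 757 ± 616 FPKM in the libraries labelled si-CIRBP and 1624 ± 142 FPKM in si-NC, against 70.2 ± 5.34 FPKM in NC (SD, n = 3 each). In the CIRBP arm 11 were called without library 1 of the si-CIRBP label, 5 higher and 6 lower, where 61.9% of all tested genes were called. With only the groups of that arm in the fit 12 were called, where 70.7% of all tested genes were. After scaling to a common median 5 were higher and 3 lower in that arm, where 28.7% and 26.4% of all tested genes were. The count in the si arm was 9 without library 1 of the si-CIRBP label, where 35.7% of all tested genes were called. It was 1 with only the groups of the si arm, where 8.10% were.

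Of 9 listed EGR targets tested, 3 were higher and 2 lower in the CIRBP arm (median log2 difference 0.22), and 2 were higher and 3 lower in the si arm (median -0.03). Pdgfa, a growth factor, rose by 0.22 in the CIRBP arm and by 0.32 in the si arm (adjusted p = 0.001016 and 0.0004169, limma). Tgfb1 had 102, 100.7 and 100.9 FPKM in CIRBP, against 79.0, 76.6 and 77.3 FPKM in NC, and rose by 0.38 (adjusted p = 0.0002377, limma). It had 109, 97.6 and 98.2 FPKM in libraries labelled si-CIRBP, against 129, 130 and 116 FPKM in si-NC, and fell by 0.30 (adjusted p = 0.003363, limma). Its groups were apart in both arms and the difference between the arms was 0.68 (adjusted p = 0.0006231, limma). Of the EGR corepressors, Nab2 rose by 0.39 and Nab1 fell by 0.21 in the si arm (adjusted p = 0.008132 and 0.02811, limma), and neither was called in the CIRBP arm. After scaling to a common median Nab1 was not called, and 2 EGR targets were higher and 1 lower in the si arm. With only the si arm groups in the fit 1 of the 9 targets and neither corepressor was called there, where 8.10% of all tested genes were.

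Across the 12 libraries, some pairs of members varied together, within a family or between families. Pearson's r of log2(FPKM + 1) was 0.82 for Egr1 with Egr2, 0.76 for Fosl1 with Junb, 0.73 for Fosb with Junb and -0.82 for Fosl1 with Jun. The pairs of Fosl1, Fosb, Jun and Junb share library 1 of the si-CIRBP label, in which Fosl1, Fosb and Junb were high and Jun was low. Over the 11 libraries without it r was 0.76 for Egr1 with Egr2, 0.66 for Fosl1 with Junb, 0.61 for Fosb with Junb and -0.53 for Fosl1 with Jun. That of Junb with Egr1 was -0.96, against -0.50 over all 12. Fosb with Jun turned from -0.42 over all 12 to 0.66. Outside the members, the genes most like Egr1 were Glo1 (r = 0.98), Pin4 (0.97) and St3gal2 (0.96). Those most like Fos were Srd5a3 (0.97), Rbm14 (0.96) and Cdk4 (0.96), and those most like Jun were Pdzd2, Sox2 and Igsf11 (0.97 each). Without library 1 of the si-CIRBP label the r of Jun was 0.92 with Pdzd2, 0.91 with Sox2 and 0.91 with Igsf11. These values describe 12 libraries in 4 groups of 3, so they follow the group means as much as any library.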

How the data were processed

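The 12 libraries (TruSeq V2, poly-A, paired-end, per the labels' protocols) were placed in 4 groups of 3 by their titles. The deposited table holds the authors' FPKM, per the file headers. The submitters' processing notes list Cufflinks 2.2.1, Bowtie2 2.3.3.1 and, as builds, GRCm38 and mm10 of the mouse, but the gene identifiers are those of rat, so the build behind the values is unclear. The sources used here do not state the strand setting, so reads of overlapping antisense genes cannot be told apart. Columns of NC and CIRBP begin with ad, a mark without explanation in the labels. No column lacked a sample.

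Groups were compared with limma 3.58.1 in R 4.3.3 (eBayes with a trend) on log2(FPKM + 1), with 1 coefficient per group over all 12 libraries, 8 residual and 2.53 prior degrees of freedom, in the 14257 rows with at least 1 FPKM in 3 libraries. Tests were two-sided and adjusted over all rows tested. Such log2 differences understate the change of low genes. The script was tested on simulated data. Members, gene lists and tests were chosen with earlier results of these data known. From each list the text names up to 4 called genes per comparison with the smallest adjusted p and a mean of at least 1 FPKM in the higher group, and, for Fos, Jun and Egr1, the 3 genes with the highest Pearson's r. Nkx2-5, Gfap, Acta2 and Myog were named after their values were seen. One gene that the rule names is not reported here.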

Additional observations from a re-analysis of the deposited data

Results flagged for a closer look

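Jund was flagged because its changes in the arms differed by a test of the difference itself. The CIRBP arm minus the si arm was -0.545 on the log2(FPKM + 1) scale (SE 0.0983, adjusted p = 0.004751, limma over all 12 libraries). Jund averaged 86.4 ± 6.82 FPKM in CIRBP and 102 ± 3.29 FPKM in NC (SD, n = 3 each). It averaged 99.5 ± 5.45 FPKM in the libraries labelled si-CIRBP and 80.7 ± 5.50 FPKM in si-NC (SD, n = 3 each). All 3 CIRBP libraries were below all NC libraries, and all 3 libraries labelled si-CIRBP were above all si-NC libraries. The difference was called in all 22 alternatives in which it was computed, from -0.61 to -0.47, with adjusted p from 0.002997 to 0.01737. Between the controls si-NC and NC the same gene differed (log2 difference -0.34 for si-NC minus NC, adjusted p = 0.004956, limma), and its part in the result was not tested.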

How the results depend on the processing

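Egr1 and Fosl2 kept their direction and their call in both arms in each of the 23 alternatives run (pseudocount, filter, scaling, groups in the fit, variance per group, trend, replicate block and omission of libraries), with log2 differences of 1.90 to 2.2 and 2.03 to 2.55 for Egr1 and of -0.77 to -0.53 and -0.87 to -0.66 for Fosl2. Egr2 was called in the CIRBP arm in all 23, and in the si arm in 9 of them. Junb was called in the CIRBP arm in 6 of 23. Jund lost its call in the CIRBP arm in 3 of 23 (either scaling, or without CIRBP library 2) and in the si arm in 2 (only its groups, or a variance factor per group). With each library left out in turn, the members called were 3 to 5 in the CIRBP arm (3 without CIRBP library 2, where Jund was lost), 3 to 7 in the si arm, 1 to 3 for the difference between the arms and 3 to 7 in si-NC against NC; the highest counts of the last 3 came without library 1 of the si-CIRBP label, and that of the CIRBP arm without any 1 library of that label. All tested genes called in these fits were 46.9% to 61.9%, 22.8% to 35.7%, 11.2% to 31.6% and 21.6% to 47.1%, in the same order. An alternative added after the data were seen left out si-CIRBP library 1 and si-NC library 1 together. It called 9, 4 and 7 members in the si arm, the difference and si-NC against NC. All tested genes called there were 41.8%, 41.4% and 57.4%. With only the groups compared the last count was 7, where 31.6% of all tested genes were called. Fosb reversed in the si arm to -0.31 without si-CIRBP library 1 and to -0.27 without both; Jun reversed to 0.30 in the si arm and to -0.35 for the difference without both. With each library left out in turn they ran from -0.31 to 0.60 (Fosb, si arm), -0.22 to 0.19 (Jun, si arm) and -0.25 to 0.17 (Jun, difference). The cause was not tested. Family sums, shares and correlations without si-CIRBP library 1 were also added after the data were seen. Over all genes the si arm count of 4218 was 1155 with only its groups and 2019 with a variance factor per group, that of the difference (2535) ran from 1596 to 4503 with single libraries left out and was 5899 without both, and that of si-NC against NC (4909) ran down to 3085 and was 8188 without both. Same-numbered libraries had correlations of -0.09 to 0.10 in their deviations, none over 0.1, so the numbers were not taken as pairs. With the replicate block 4, 3, 1 and 3 members were called in the CIRBP arm, the si arm, the difference and si-NC against NC, as without it. Of the 14257 tested genes 7512, 3926, 2232 and 4525 were called with the block, against 7695, 4218, 2535 and 4909 without it. FPKM hold no absolute depth, so no counting error could be given.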
